A study of Mus musculus and Homo sapiens with 14 samples.

Results

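MB1, a mouse medulloblastoma cell line, was compared between cultures grown alone and cultures grown beside Oli-neu, a mouse line of oligodendrocyte precursor cells. MB1 was established from tumours that arose in Atoh1-cre:SmoM2 mice at postnatal day 12. In these mice Cre recombinase, expressed from the Atoh1 promoter of cerebellar granule neuron precursors, switches on an activated form of Smoothened, the membrane protein that starts hedgehog signalling. The members of the comparison were 4 of the 14 libraries of the series, 2 of MB1 alone and 2 of MB1 with Oli-neu. All genes with at least 1 TPM (a level per transcript length, scaled to the same total in each library) in at least 2 of these 4 libraries were tested, 12407 of the 35288 genes listed.

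Both groups grew in DMEM/F-12 medium with B-27 and N-2 supplements and 20 ng/mL each of EGF and basic FGF, so that the control cultures also received both growth factors. In the co-culture the lines were separated by a cell culture insert of 30 mm with pores of 0.4 µm, through which medium and secreted material can pass. The labels name neither an empty insert nor a second MB1 culture as partner for the cells grown alone, so the Oli-neu cells cannot be told apart from the insert or from the number of cells sharing the medium. The 2 libraries of a group are described as biological replicates, with no culture date or passage, and MB1 is a single line. The p values therefore measure the spread between cultures of this line and not between tumours.

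Sonic hedgehog medulloblastoma arises from granule neuron precursors, which divide in the outer layer of the young cerebellum as long as hedgehog signalling is active. Chemokines such as Ccl2 and Cxcl1 are small secreted proteins that attract monocytes and neutrophils. Many of their genes are activated by NF-kB, a family of transcription factors that are held in the cytoplasm by inhibitors such as IkBa (the product of Nfkbia) and enter the nucleus once the inhibitor is degraded. NF-kB also activates the genes of its own inhibitors, which closes a feedback loop.

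The label of the line was only partly borne out by its markers. Zic1, a transcription factor of the cerebellar granule lineage, was at 84.3 and 63.7 TPM in MB1 alone and at 101 and 125 TPM with Oli-neu. Smo was between 23.7 and 36.7 TPM and Ptch1, the hedgehog receptor and a target of the pathway, between 14.2 and 18.4 TPM. Whether transcripts of the activated form of Smoothened count towards Smo was not examined. The hedgehog targets Gli1 and Mycn were near 0, with Gli1 at no more than 0.178 TPM and Mycn at no more than 0.459 TPM. Ccnd1 and Ccnd2, also on the hedgehog list, were between 292 and 307 TPM and between 181 and 457 TPM. In the granule neuron list, Zic2 was between 22.6 and 30.3 TPM, Pax6 between 18.6 and 25.4 TPM and Nfib between 38.7 and 51.0 TPM. Of 24 genes on that list 13 passed the filter, and of 21 on the hedgehog list 12 did. Atoh1 reached at most 0.0143 TPM. Barhl1, a further granule precursor factor, was listed at 0 in all 4 libraries. Olig2 and Olig1, transcription factors of oligodendrocyte and glial precursors, were high in both groups, Olig1 at 655 and 833 TPM alone. Fabp7, a fatty acid binding protein of radial glia and astrocytes, was at 2636 and 2550 TPM alone. The cells are therefore called MB1 cells below.

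Across genes, the libraries of MB1 with Oli-neu correlated with r = 0.977 and those of MB1 alone with r = 0.956, where genes are not independent replicates. Libraries of different groups correlated with r between 0.950 and 0.969. MB1 alone replicate 2 stood apart: the first principal component, with 49.8% of the variance, placed it at 46.3 and the other 3 libraries between -25.7 and -2.54. Mitochondrially encoded genes held 5.73% of its TPM, against 8.19% to 9.56% in the other 3. For the lists that stood farthest from the bulk of the genes, counts are therefore also given without this library, a comparison added after the data were seen. The depth of the libraries is unknown, and between 12041 and 12338 genes reached 1 TPM.

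No gene passed the threshold of an adjusted p of 0.05 in limma's moderated test on log2(TPM + 1), either higher (0%) or lower (0%) beside Oli-neu, and the smallest adjusted p was 0.0778. At an unadjusted p under 0.05 in the same test, 375 genes were higher (3.02%) and 1569 were lower (12.6%). In 1358 genes (10.9%) both co-culture libraries lay above both libraries of MB1 alone, and in 5153 genes (41.5%) both lay below them. The median difference over all genes tested was -0.17 on the log2(TPM + 1) scale, so that a gene or list near that value sat with the bulk of the genes. Median-ratio scaling, which divides each library by its median ratio to the mean profile, brought this median to -0.0025. After it the groups did not overlap in 23% of genes in the higher and 22.2% in the lower direction, so the excess of lower over higher genes depended on the scaling. Without MB1 alone replicate 2 the shares were 21.9% higher and 57.7% lower, with a median of -0.18. The counts of each gene list below are to be read against these shares. Fold changes of low genes are understated on this scale. In bulk RNA, fewer cells of a type and less RNA per cell cannot be told apart.

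**Figure D1:**
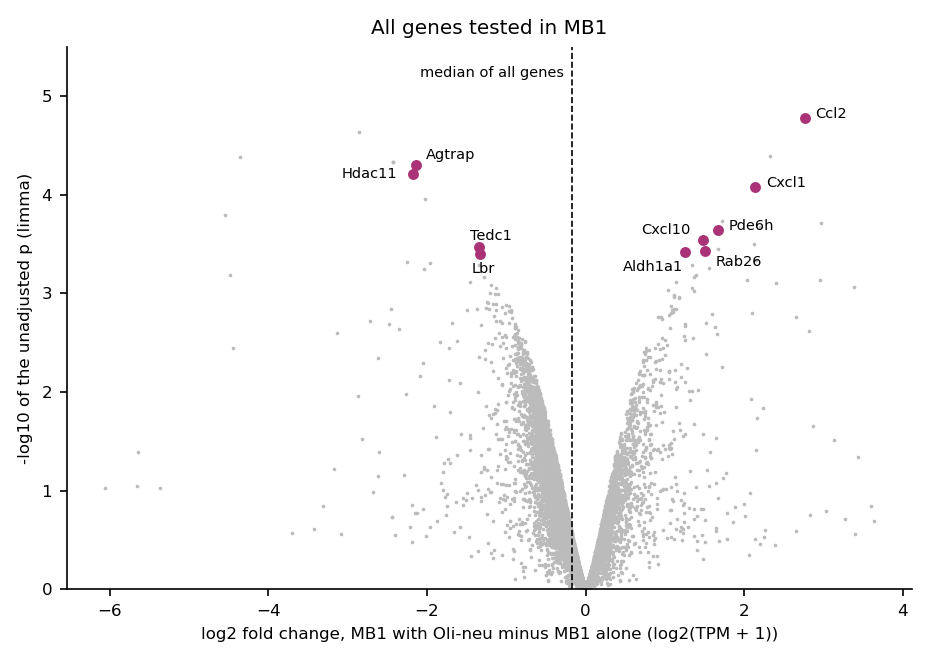
Difference between MB1 with Oli-neu and MB1 alone on the log2(TPM + 1) scale (x axis) against -log10 of limma's unadjusted p (y axis) for the 12407 genes tested, 1 point per gene. The named points are the 10 genes with the smallest p after gene models without a name were left out. Ccl2 lies farthest to the right among them at 2.77 and Hdac11 farthest to the left at -2.18.

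The 10 named genes with the smallest p did not pass the adjusted threshold and are given as measured values. Ccl2, the main chemokine for monocytes (GRCm38 chr11:82035571-82037453, plus strand), was at 0.611 and 0.445 TPM in MB1 alone and at 9.67 and 9.11 TPM with Oli-neu. The difference was 2.77 (SE 0.16, limma adjusted p = 0.0778), or 17.8-fold between the mean TPM values. The groups were far apart, with co-culture libraries that differed little from each other. Cxcl1, a chemokine for neutrophils (chr5:90891241-90893115, plus strand), was listed at 0 and at 0.153 TPM alone and at 3.87 and 3.6 TPM with Oli-neu. Its difference was 2.14 (SE 0.18, limma adjusted p = 0.103). Cxcl10, a chemokine for activated T cells that responds to interferons (chr5:92346638-92348889, minus strand), was at 2.07 and 2.43 TPM alone and at 8.33 and 7.85 TPM beside Oli-neu, a difference of 1.49 (SE 0.16, limma adjusted p = 0.210). All 3 chemokines were thus higher in both co-culture libraries than in either library alone. Of them, Ccl2 and Cxcl1 reached 1 TPM in the co-culture libraries only and so had to differ in order to be tested.

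The other 3 genes that were higher have unrelated roles. Rab26, a small GTPase of secretory vesicles (chr17:24527241-24534210), was at 9.48 and 7.91 TPM alone and at 24.7 and 28.5 TPM with Oli-neu, a difference of 1.51. Aldh1a1, an enzyme that oxidises retinaldehyde to retinoic acid (chr19:20492715-20643465), was at 8.47 and 8.23 TPM alone and at 20.8 and 21.7 TPM with Oli-neu, a difference of 1.25. Pde6h, the inhibitory subunit of a phosphodiesterase of cone photoreceptors (chr6:136923832-136968865), was at 0.0297 and 0.0100 TPM alone and at 2.11 and 2.41 TPM with Oli-neu. Pde6h therefore passed the filter on low values through the co-culture libraries only, and had to differ to be tested.

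Agtrap, which binds the angiotensin II receptor and promotes its internalisation (chr4:148077061-148088031, minus strand), was at 19.2 and 22.4 TPM in MB1 alone and at 3.93 and 3.91 TPM with Oli-neu. The difference was -2.14 (SE 0.16, limma adjusted p = 0.0778), which is a 5.31-fold higher mean TPM alone. Hdac11, the class IV histone deacetylase (chr6:91156665-91174692, plus strand), was at 11.1 and 9.21 TPM alone and at 1.41 and 1.49 TPM beside Oli-neu, a difference of -2.18 (SE 0.17, limma adjusted p = 0.0852). For both genes the co-culture libraries were close to each other and well below those of MB1 alone. Lbr, the lamin B receptor of the inner nuclear membrane, which also has sterol reductase activity (chr1:181815335-181843046), was at 29.6 and 27.3 TPM alone and at 11.4 and 10.1 TPM with Oli-neu, a difference of -1.33. Tedc1, which acts with delta and epsilon tubulin at centrioles (chr12:113156421-113166048), was at 8.48 and 8.91 TPM alone and at 2.81 TPM in both co-culture libraries, a difference of -1.35. The adjusted p of Lbr, Tedc1, Rab26 and Aldh1a1 was 0.216 in limma, and that of Pde6h was 0.178.

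Restricting the limma test to 11832 protein-coding genes, with TPM rescaled over them, put 5 of these genes past the threshold. Ccl2 (adjusted p = 0.0221), Cxcl1 (0.0366) and Pde6h (0.0480) were called higher, and Agtrap (0.0366) and Hdac11 (0.0366) were called lower. The calls thus depended on the set of genes over which p values were adjusted and TPM was scaled. Ccl2, Cxcl1 and Pde6h reached 1 TPM in the co-culture libraries only and so had to differ in order to be tested.

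Secreted inflammatory genes were higher beside Oli-neu as a list. Of 38 chemokines, cytokines and secreted acute phase proteins, 12 passed the filter, 19 others were detected below it and 7 were listed at 0 in all 4 libraries. Among the 12, 9 lay above both libraries alone in both co-culture libraries, 0 lay below, and 3 overlapped. Their median difference was 0.84, or 1.00 after median-ratio scaling. Ccl2, Cxcl1, Ccl7 and Lcn2 reached 1 TPM in the co-culture libraries only and so had to differ in order to be tested, which makes neither this count nor this median a support. The other 8 had a median of 0.66, with 5 higher and 3 overlapping. All 12 were higher without MB1 alone replicate 2, against 21.9% of all genes. Ccl2, Cxcl1, Ccl7 and Lcn2 are among the 12 and could not have come out otherwise. Saa3 was higher by little in that setting, at 1.62 and 1.19 TPM with Oli-neu against 1.18 TPM in MB1 alone replicate 1. Over all 31 detected members, including those under the filter, 14 were higher and 3 lower in both co-culture libraries. Over all 22036 genes detected in MB1 the same shares were 11.2% higher and 31.1% lower.

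Ccl7, a second monocyte chemokine whose gene lies next to Ccl2 (chr11:82045712-82047525), was at 0.252 and 0.0544 TPM alone and at 1.95 and 1.88 TPM with Oli-neu. Lcn2, lipocalin 2, an iron-siderophore binding protein of the acute phase, was listed at 0 in both libraries alone and at 1.24 and 1.29 TPM with Oli-neu. These genes were low even where they were highest. Serpina3n, a secreted protease inhibitor of reactive glia, was at 9.06 and 9.80 TPM alone and at 19.1 and 18.3 TPM with Oli-neu, a difference of 0.92. Csf1, the growth factor of macrophages and microglia, was at 8.88 and 8.98 TPM alone and at 14.3 and 13.8 TPM in co-culture, a difference of 0.60. Il33, an alarmin kept in the nucleus, was at 43.6 and 35.9 TPM alone and at 61.4 and 70.5 TPM with Oli-neu, a difference of 0.72. The groups did not overlap for any of these 5 genes.

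Il34, a second ligand of the Csf1 receptor, was at 0.751 and 1.32 TPM alone and at 2.35 and 2.45 TPM with Oli-neu. Cxcl14, Cx3cl1 and Saa3 overlapped between groups and were between 1.18 and 8.85 TPM. The cytokines at the head of inflammatory cascades were at or near 0 in these cells: Il1b was listed at 0 in all 4 libraries, Tnf reached at most 0.0165 TPM and Il6 at most 0.0740 TPM. Cxcl12, which holds granule precursors at the meninges, was under the filter at 0.459 and 0.315 TPM alone and at 0.0901 and 0.159 TPM with Oli-neu, and so lay on the lower side.

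**Figure D2:**
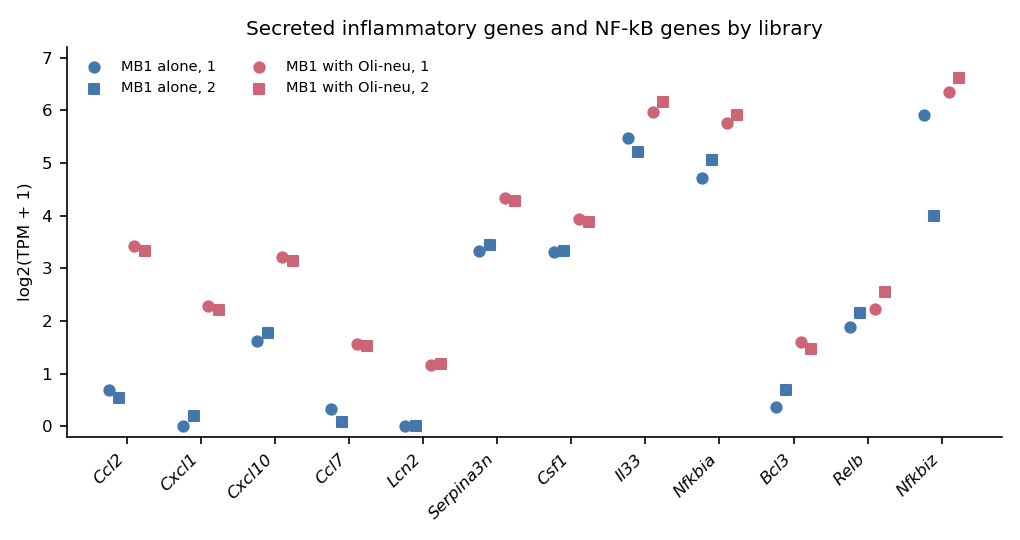
Levels of secreted inflammatory genes and of NF-kB genes as log2(TPM + 1) (y axis) in each of the 4 MB1 libraries, with 1 symbol per library and genes along the x axis. The libraries of MB1 with Oli-neu lie above those of MB1 alone for Ccl2, Cxcl1, Cxcl10, Ccl7, Lcn2 and Nfkbia, and Nfkbiz spreads widely between the libraries of MB1 alone.

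Of 36 components, feedback genes and other targets of NF-kB, 21 were tested. Both co-culture libraries were higher for 11 of them (52.4%) and lower for 6 (28.6%), with a median of 0.22, or 0.35 after median-ratio scaling. Among the 19 that reached 1 TPM in both groups 10 were higher and 5 lower, with the same median of 0.22. Of the 21, 12 were higher and 6 lower without MB1 alone replicate 2. Nfkbia, the inhibitor IkBa, was at 25.4 and 32.1 TPM alone and at 53 and 58.8 TPM with Oli-neu, a difference of 0.94 (SE 0.18, limma adjusted p = 0.282). Bcl3, an IkB family member that acts in the nucleus, was at 0.296 and 0.616 TPM alone and at 2.04 and 1.78 TPM with Oli-neu, a difference of 1.01. It passed the filter through the co-culture libraries only and so had to differ. Vcam1, an adhesion molecule for leukocytes, was at 11.4 and 10.6 TPM alone and at 17.2 and 14.8 TPM with Oli-neu. For these 3 genes the groups did not overlap. Nfkbiz, IkBz, had the same direction but was at 58.7 and 14.8 TPM alone and at 80.5 and 96.6 TPM with Oli-neu, and its difference of 1.54 had an SE of 0.64. Sod2, mitochondrial superoxide dismutase, which is a classical NF-kB target, went the other way, at 101 and 88.7 TPM alone and at 70.3 and 64.5 TPM with Oli-neu. Rela, a subunit of NF-kB itself, was at 12.3 and 13.2 TPM alone and at 12.2 and 11.2 TPM with Oli-neu. The median of the list was 0.13 without MB1 alone replicate 1, 0.09 without MB1 with Oli-neu replicate 1 and 0.07 without MB1 with Oli-neu replicate 2.

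Promoters that hold the NF-kB consensus are shown for some of the genes that lay higher together, because NF-kB is known to bind a short sequence there. Each window holds 250 bases before the gene's start and 50 from it, from RefSeq on GRCm38.p6, written 5′ to 3′ on the gene's strand, with base 251 as the start. The capitals mark matches to the NF-kB consensus on either strand. The windows are Cxcl1 at chr5:90890995-90891294 (plus strand), Cxcl10 at chr5:92348840-92349139 (minus), Nfkbia at chr12:55492598-55492897 (minus) and Bcl3 at chr7:19822706-19823005 (minus).
Cxcl1: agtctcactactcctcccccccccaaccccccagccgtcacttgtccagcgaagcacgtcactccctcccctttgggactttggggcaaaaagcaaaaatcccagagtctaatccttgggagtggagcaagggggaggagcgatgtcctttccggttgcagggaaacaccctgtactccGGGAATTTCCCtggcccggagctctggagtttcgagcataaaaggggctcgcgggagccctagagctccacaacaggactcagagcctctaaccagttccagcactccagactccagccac
Cxcl10: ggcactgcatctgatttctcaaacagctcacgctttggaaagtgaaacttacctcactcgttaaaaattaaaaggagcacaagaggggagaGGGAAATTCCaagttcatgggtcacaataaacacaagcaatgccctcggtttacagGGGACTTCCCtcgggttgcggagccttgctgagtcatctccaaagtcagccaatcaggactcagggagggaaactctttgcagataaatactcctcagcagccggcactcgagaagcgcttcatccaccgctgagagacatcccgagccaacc
Nfkbia: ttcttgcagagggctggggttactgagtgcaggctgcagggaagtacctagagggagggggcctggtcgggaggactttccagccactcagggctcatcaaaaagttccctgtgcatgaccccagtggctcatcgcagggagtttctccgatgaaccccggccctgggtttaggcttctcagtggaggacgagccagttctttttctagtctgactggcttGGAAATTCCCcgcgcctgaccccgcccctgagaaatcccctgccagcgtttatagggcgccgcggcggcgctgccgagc
Bcl3: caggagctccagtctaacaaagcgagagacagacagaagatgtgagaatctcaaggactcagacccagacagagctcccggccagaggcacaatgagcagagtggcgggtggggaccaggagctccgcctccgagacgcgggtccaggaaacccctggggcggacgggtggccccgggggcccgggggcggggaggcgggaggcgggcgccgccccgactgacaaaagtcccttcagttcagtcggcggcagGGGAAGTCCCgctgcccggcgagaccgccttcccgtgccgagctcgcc

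In Cxcl1 the matches overlap, at bases 180 to 189 and 181 to 190. Cxcl10 has matches at bases 92 to 101 and 148 to 157, Nfkbia has 1 at bases 222 to 231, and Bcl3 has 1 at bases 253 to 262, just after the start. Of the 9 tested inflammatory genes matched to RefSeq windows, 3 held the consensus (33.3%), and of 15 matched NF-kB genes, 9 did (60%). Over all 27025 genes with windows of this length the share was 5.14%. NF-kB target lists are in part defined by such sequences, and Sod2, which was lower, holds a match as well. Lcn2, Serpina3n and Il33, which were higher, held no match, and no window was available for Ccl2 and Ccl7. A match is a description of the letters and does not show that the factor was bound in these cells.

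The lists of other inflammatory branches differed from each other. Of 20 tested receptors and adaptors of inflammatory cytokines, both co-culture libraries were higher for 2 (10%) and lower for 9 (45%), near the 10.9% and 41.5% of all genes, with a median of -0.21. It was -0.13 without MB1 alone replicate 1 and -0.02 without MB1 alone replicate 2. Ifngr1, an interferon gamma receptor chain, was at 13.8 and 20.5 TPM alone and at 9.79 and 11.3 TPM with Oli-neu. Of 13 STAT3 targets and acute phase genes 4 were higher (30.8%) and 1 lower (7.69%) in both libraries, and 6 and 1 after median-ratio scaling. Of 13 interferon response genes 5 were higher (38.5%) and 4 lower (30.8%), and 6 and 1 after that scaling. The share of higher members was above that of all genes in both lists. The STAT3 median of 0.13 was 0.11 without MB1 alone replicate 1 and 0.61 without MB1 alone replicate 2. The interferon median of 0.14 was 0.02 without MB1 alone replicate 2. C3, the STAT3 list member that was lower, passed the filter through the libraries alone only and so had to differ. Ifitm3, a membrane protein that blocks virus entry, was at 10.7 and 7.93 TPM alone and at 19.3 and 20.3 TPM with Oli-neu. Timp1, an inhibitor of matrix metalloproteases and a STAT3 target, was at 5.60 and 6.47 TPM alone and at 14.7 and 12.7 TPM with Oli-neu, a difference of 1.06.

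Of 17 genes of MHC class I and antigen presentation, 9 were higher in both co-culture libraries (52.9%) and 1 was lower, and 14 and 1 without MB1 alone replicate 2. The median was 0.22, or 0.13 without MB1 alone replicate 1. Psmb8, a subunit of the immunoproteasome, was at 0.618 and 1.07 TPM alone and at 2.09 and 2.19 TPM with Oli-neu. Tap2, a subunit of the peptide transporter, was at 5.74 and 7.63 TPM alone and at 15.6 and 11.1 TPM with Oli-neu. H2-D1, a class I heavy chain, was at 22.4 and 26.4 TPM alone and at 34.1 and 32.2 TPM with Oli-neu, and class I genes are similar enough that reads can be shared among them. These 3 genes did not overlap between groups. Of the other class I heavy chains tested, H2-T22 was higher and H2-Q7 lower in both co-culture libraries. H2-K1, H2-Q4 and H2-T23 overlapped between groups, with lower means beside Oli-neu. Of the 4 complement genes tested, C4b was higher, at 5.49 and 4.43 TPM alone and at 7.76 and 12.7 TPM with Oli-neu. C3, C2 and Masp1 were lower in both co-culture libraries, C3 passing the filter through the libraries alone only.

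Genes of DNA replication were lower beside Oli-neu. Of 38 members, all of which were tested, both co-culture libraries were below both libraries alone for 32 (84.2%, against 41.5% of all genes) and above them for 0. The median was -0.60, or -0.42 after median-ratio scaling, where 29 members were still lower in both libraries against 22.2% of all genes. Without MB1 alone replicate 2, 36 were lower, against 57.7% of all genes. Not 1 of them passed the adjusted threshold of limma, and 24 had an unadjusted p under 0.05. Orc6, Rfc3, Mcm2 and Mcm4 overlapped between groups with lower means, and Pola1 and Orc1 overlapped with higher ones.

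Tyms, thymidylate synthase, was at 32.1 and 28.2 TPM alone and at 12.1 and 14.4 TPM with Oli-neu, a difference of -1.13 (SE 0.17, limma adjusted p = 0.254). Chaf1b, a subunit of the histone chaperone that follows the replication fork, was at 18.9 and 17.9 TPM alone and at 8.48 and 9.38 TPM with Oli-neu, a difference of -0.96. Fen1, the nuclease that trims Okazaki fragments, was at 16.9 and 18.5 TPM alone and at 8.66 and 9.49 TPM with Oli-neu, a difference of -0.89. These 3 genes were each lower in both co-culture libraries than in either library alone. Mcm3, a subunit of the replicative helicase, was at 60.7 and 62.2 TPM alone and at 37.8 and 34.0 TPM with Oli-neu. Pold1, the catalytic subunit of DNA polymerase delta, was at 53.5 and 48.7 TPM alone and at 29.7 and 30.2 TPM with Oli-neu. The list thus spanned nucleotide supply, the helicase, the polymerase and chromatin assembly.

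Replication genes are known targets of E2F factors, which are released when cyclin-dependent kinases phosphorylate the retinoblastoma protein. The windows of Mcm3 (chr1:20820263-20820562, minus strand) and Pold1 (chr7:44548766-44549065, minus strand) are shown, with capitals at matches to TTTCCCGC or TTTGGCGC on either strand.
Mcm3: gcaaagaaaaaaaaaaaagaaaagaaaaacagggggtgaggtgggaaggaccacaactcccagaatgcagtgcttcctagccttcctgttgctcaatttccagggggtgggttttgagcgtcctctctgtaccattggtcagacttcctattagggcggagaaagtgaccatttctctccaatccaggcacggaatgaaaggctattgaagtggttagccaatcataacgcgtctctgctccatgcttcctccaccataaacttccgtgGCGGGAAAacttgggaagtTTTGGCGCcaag
Pold1: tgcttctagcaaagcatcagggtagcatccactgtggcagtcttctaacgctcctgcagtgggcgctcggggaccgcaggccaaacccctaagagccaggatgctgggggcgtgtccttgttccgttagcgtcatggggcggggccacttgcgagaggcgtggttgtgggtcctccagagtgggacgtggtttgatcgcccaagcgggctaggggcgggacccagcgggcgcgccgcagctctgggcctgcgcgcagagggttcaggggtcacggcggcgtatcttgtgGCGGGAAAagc

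Mcm3 has matches at bases 270 to 277 and 289 to 296, and Pold1 has 1 at bases 290 to 297. Of the 31 replication genes matched to RefSeq windows 10 held 1 of these sequences (32.3%), against 1.80% of all genes with windows. Tyms, Chaf1b and Fen1, which were lower, held no match. Rfc3 and Pola1, which overlapped between groups, held a match, Pola1 with a higher mean beside Oli-neu. The binding of E2F factors was not measured.

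**Figure D3:**
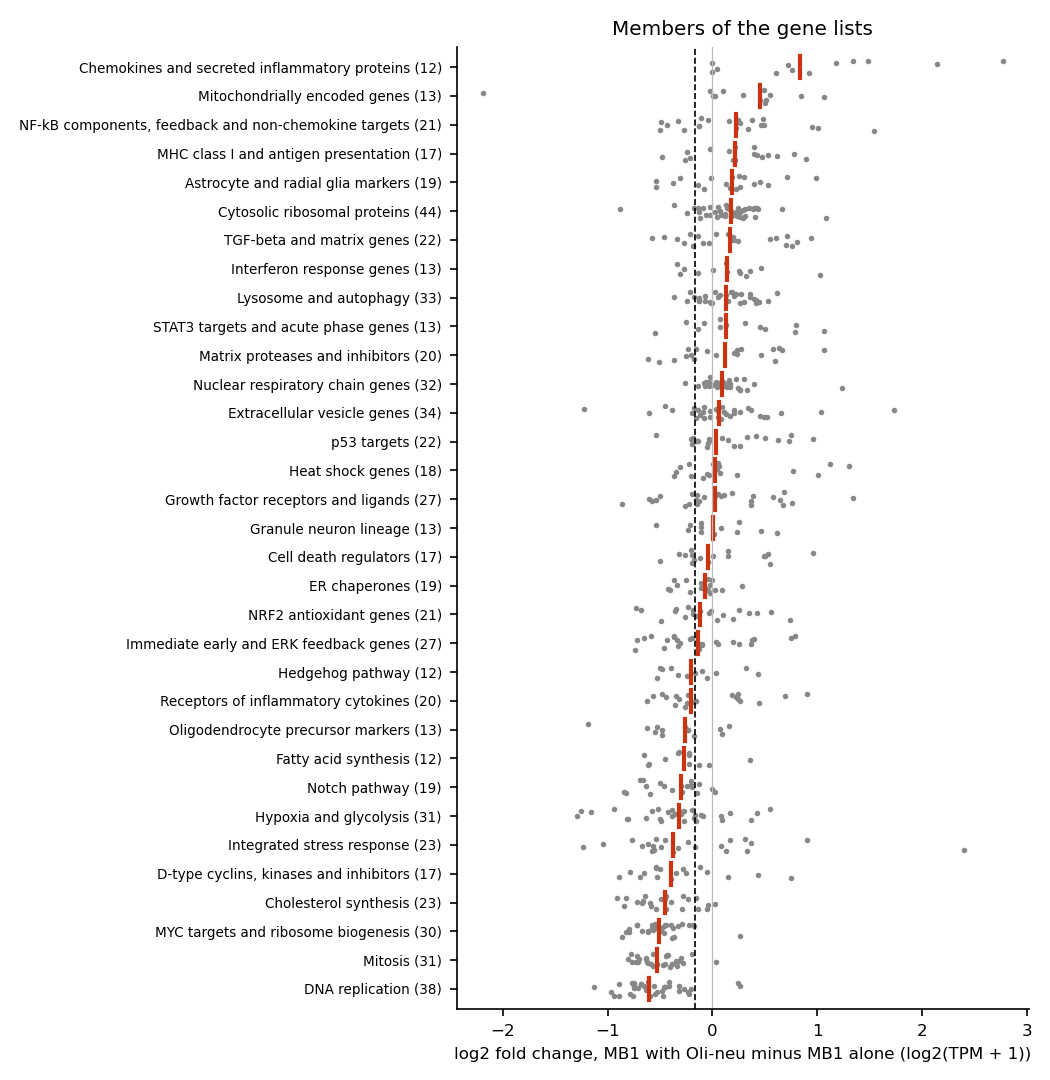
Difference between MB1 with Oli-neu and MB1 alone (x axis, log2(TPM + 1) scale) for each tested member of the gene lists (1 line per list with at least 10 tested members, 1 point per gene), with the list median as a red bar and the median of all genes as a dashed line. The replication median lies at -0.60 and the mitosis median at -0.53, below the median of all genes at -0.17, and the secreted inflammatory median lies at 0.84, with 4 of its 12 members tested only because of their co-culture levels.

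Genes of mitosis followed the same direction. Of 31 members, 28 were lower in both co-culture libraries (90.3%) and 0 were higher, with a median of -0.53, or -0.35 after median-ratio scaling, where 20 were lower. The median was -0.32 without MB1 alone replicate 1 and -0.61 at its lowest with another library left out. Leaving out MB1 alone replicate 2 left 30 members lower. Plk1, a kinase of spindle assembly, was at 35.0 and 29.9 TPM alone and at 18.9 and 18 TPM with Oli-neu, a difference of -0.78. Cdk1, the kinase that drives entry into mitosis, was at 240 and 224 TPM alone and at 153 and 127 TPM with Oli-neu. Foxm1, a transcription factor of G2 and M phase genes, was at 30.4 and 27.3 TPM alone and at 13.9 and 18.6 TPM with Oli-neu. The groups did not overlap for these genes, and Cdk1 and Foxm1 varied more between the co-culture libraries than Plk1.

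Upstream of these lists, 11 of 17 genes of cyclins, their kinases and inhibitors were lower in both co-culture libraries (64.7%) and 2 were higher (11.8%), with a median of -0.39. After median-ratio scaling the median was -0.20, with 9 lower and 3 higher. Cdk2 was at 21.7 and 20.1 TPM alone and at 14.8 and 13.4 TPM with Oli-neu, and E2f1 was at 6.32 and 8.23 TPM alone and at 4.64 and 3.87 TPM. Ccnd1, cyclin D1, hardly differed, with 307 and 303 TPM alone and 296 and 292 TPM with Oli-neu. Of 22 p53 targets 6 were higher (27.3%) and 4 lower (18.2%) in both libraries, and 11 and 1 after median-ratio scaling. Among them Cdkn1a, the kinase inhibitor p21, was at 133 and 214 TPM alone and at 318 and 253 TPM with Oli-neu, a difference of 0.75. Fas, a death receptor, was at 6.13 and 5.84 TPM alone and at 11.8 and 13.4 TPM with Oli-neu, a difference of 0.96. Both genes were higher in both co-culture libraries.

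Genes of ribosome biogenesis and MYC targets were also lower. Of 30 members 27 were lower in both co-culture libraries (90.0%) and 0 were higher, with a median of -0.51, or -0.33 after median-ratio scaling, where 22 were lower and 1 was higher. Of the 30, 29 were lower without MB1 alone replicate 2. Noc4l, a factor of the small ribosomal subunit's assembly, was at 14.5 and 16.2 TPM alone and at 7.90 and 8.06 TPM with Oli-neu. Nop56, a core protein of box C/D particles, was at 175 and 173 TPM alone and at 96.4 and 104 TPM with Oli-neu. Polr1a, the largest subunit of RNA polymerase I, was at 11.4 and 12.4 TPM alone and at 6.59 and 7.12 TPM with Oli-neu. Myc itself was at 37.5 and 30.6 TPM alone and at 23.9 and 24.7 TPM with Oli-neu, a difference of -0.47. The groups did not overlap for these 4 genes.

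The proteins of the finished ribosome lay on the other side. Of 44 tested genes of cytosolic ribosomal proteins, 20 were higher in both co-culture libraries (45.5%) and 0 were lower, with a median of 0.18, or 0.37 after median-ratio scaling. The median was 0.10 without MB1 alone replicate 1, and without MB1 alone replicate 2 36 were higher and 2 lower. Rps6 was at 434 and 435 TPM alone and at 556 and 588 TPM with Oli-neu. Rps23 was at 412 and 184 TPM alone and at 595 and 577 TPM with Oli-neu, so that its difference of 1.09 rested in part on MB1 alone replicate 2. Ribosomal protein genes have many processed pseudogenes, which held TPM of their own in these tables, and the split between a gene and its copies is uncertain. Pseudogenes together held 25.2% and 25.3% of TPM in MB1 alone and 26.7% and 26.8% with Oli-neu.

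Mitochondrially encoded genes gave no stable direction. Their 13 members had a median of 0.45, which became -0.26 without MB1 alone replicate 2 and 0.76 without MB1 alone replicate 1. Of 32 identifiers of nuclear respiratory chain genes 7 were higher in both co-culture libraries and 0 lower.

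**Figure D4:**
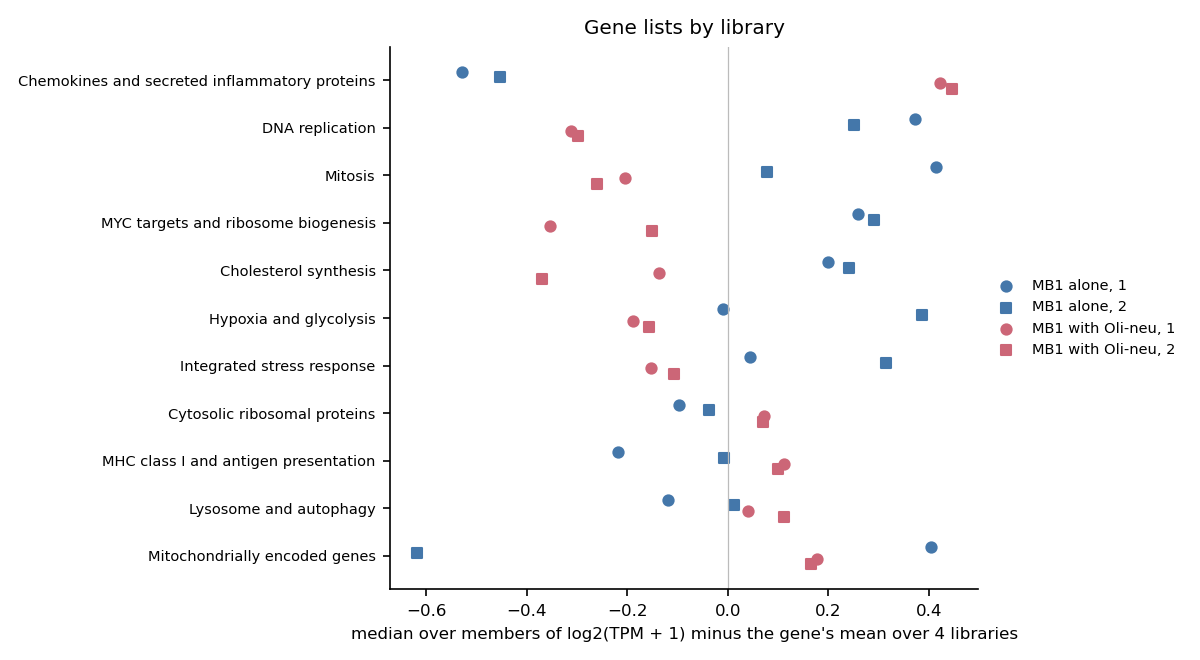
Median over the members of each gene list of log2(TPM + 1) minus the gene's mean over the 4 libraries (x axis), with 1 symbol per library and 1 line per list. For the secreted inflammatory list the co-culture libraries lie at 0.42 and 0.45 and the libraries alone at -0.53 and -0.45, the same 4 members included, while the mitochondrially encoded list is spread by MB1 alone replicate 2.

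Cholesterol synthesis genes were lower as a list. These genes are activated by SREBP2 when sterols are low, and cholesterol derivatives also act on Smoothened. Of 23 members 18 were lower in both co-culture libraries (78.3%) and 0 were higher, with a median of -0.45, or -0.26 after median-ratio scaling, where 12 were lower and 1 was higher. The counts were 19 lower and 2 higher without MB1 alone replicate 2. Dhcr7, which makes cholesterol in the last step of 1 branch, was at 285 and 348 TPM alone and at 181 and 154 TPM with Oli-neu, a difference of -0.91. Ebp, a sterol isomerase of the same pathway, was at 25.4 and 26.6 TPM alone and at 18 and 16.1 TPM with Oli-neu. The groups did not overlap for either gene. Of 12 fatty acid synthesis genes 6 were lower (50%, against 41.5% of all genes) and 1 was higher in both libraries. Their median of -0.27 was -0.16 without MB1 with Oli-neu replicate 2 and -0.08 after median-ratio scaling, with 4 lower and 2 higher. Fasn, fatty acid synthase, was at 113 and 122 TPM alone and at 78.7 and 74.3 TPM with Oli-neu.

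Genes of hypoxia and glycolysis were spread. Of 31 members 17 were lower in both co-culture libraries (54.8%, against 41.5% of all genes) and 1 was higher, with a median of -0.32. After median-ratio scaling 11 were lower and 5 higher, with a median of -0.13. With MB1 alone replicate 2 left out, 17 were lower and 9 higher, and the median of -0.14 lay near the -0.18 of all genes in that setting. The median was -0.49 without MB1 alone replicate 1. Hk2, hexokinase 2, was at 31.0 and 29.9 TPM alone and at 13.2 and 10.7 TPM with Oli-neu, a difference of -1.29 (SE 0.17, limma adjusted p = 0.249). Egln3, an oxygen sensing prolyl hydroxylase that is itself induced in hypoxia, was at 20.1 and 24.3 TPM alone and at 10.3 and 8.46 TPM with Oli-neu. Pdk1, the kinase that keeps pyruvate out of mitochondria, was at 108 and 121 TPM alone and at 66.3 and 62.2 TPM with Oli-neu. Ankrd37, a target of hypoxia-inducible factor, was at 62.9 and 61.5 TPM alone and at 30.3 and 33.6 TPM with Oli-neu. For these 4 genes the groups were separate in spite of the spread of the list.

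In the integrated stress response, the program of the factor ATF4, 13 of 23 identifiers were lower in both co-culture libraries (56.5%) and 3 were higher (13%), with a median of -0.38, or -0.19 after median-ratio scaling, where 10 were lower and 6 higher. Trib3, a pseudokinase, was at 3.28 and 5.04 TPM alone and at 1.08 and 1.26 TPM with Oli-neu, a difference of -1.23. Mthfd2, an enzyme of mitochondrial folate metabolism, was at 29.4 and 27.4 TPM alone and at 18.4 and 18.1 TPM with Oli-neu. Of 19 chaperones of the endoplasmic reticulum 6 were lower (31.6%) and 1 was higher, and 1 and 4 after median-ratio scaling. Of 18 heat shock genes 4 were higher (22.2%) and 3 lower (16.7%), and 9 and 0 after that scaling. Cryab, a small heat shock protein of glia, was at 78.3 and 66.1 TPM alone and at 153 and 162 TPM with Oli-neu, a difference of 1.12. Hspb1, a second small heat shock protein, was at 2.72 and 4.53 TPM alone and at 7.89 and 13.0 TPM with Oli-neu. Both genes were separate between the groups.

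Of 34 genes of extracellular vesicles, the membrane-bound particles that cells release, 10 were higher (29.4%) and 6 lower (17.6%) in both co-culture libraries, with a median of 0.06. After median-ratio scaling 19 of 33 were higher and 3 lower, with a median of 0.26. As deposited it was 0.02 without MB1 alone replicate 1 or MB1 with Oli-neu replicate 1, and 0.14 without MB1 alone replicate 2. Among the 33 vesicle genes that reached 1 TPM in both groups, 10 were higher and 5 lower as deposited, with a median of 0.07. Anxa5, a protein that binds phosphatidylserine, was at 25.6 and 27.7 TPM alone and at 56.5 and 55.0 TPM with Oli-neu, a difference of 1.04 (SE 0.14, limma adjusted p = 0.254). Cd63, a tetraspanin of late endosomes and exosomes, was at 648 and 817 TPM alone and at 1074 and 1214 TPM with Oli-neu. Cd82, a further tetraspanin, was at 3.87 and 3.35 TPM alone and at 1.17 and 0.795 TPM with Oli-neu, a difference of -1.22. The tetraspanins thus differed in direction. Of 33 lysosome and autophagy genes 11 were higher (33.3%) and 7 lower (21.2%), with a median of 0.13, or 0.04 without MB1 alone replicate 1. After median-ratio scaling 21 were higher and 0 lower, with a median of 0.31. Ctsf, a lysosomal cysteine protease, was at 12.8 and 15.7 TPM alone and at 23.2 and 21.5 TPM with Oli-neu.

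Among signalling pathways of cerebellar progenitors, the Notch list had 9 of 19 members lower in both co-culture libraries (47.4%, near the 41.5% of all genes) and 0 higher, with a median of -0.30. After median-ratio scaling 6 were lower and 1 higher, with a median of -0.13. Mfng passed the filter through the libraries alone only and so had to be lower. Among the 18 Notch genes that reached 1 TPM in both groups, 8 were lower and 0 higher as deposited. Hes1, a repressor that Notch induces, was at 76.7 and 98.0 TPM alone and at 51.1 and 46.1 TPM with Oli-neu. Dll1, a ligand of Notch, was at 36.0 and 35.0 TPM alone and at 24 and 20.3 TPM with Oli-neu. Of 9 feedback genes of Wnt signalling 7 were lower (77.8%) and 0 higher, with a median of -0.38. After median-ratio scaling 5 of 8 were lower, with a median of -0.24. Tcf7 passed the filter through the libraries alone only and so had to be lower. Among the 8 Wnt feedback genes that reached 1 TPM in both groups, 6 were lower and 0 higher as deposited, with a median of -0.40. Apcdd1, a membrane inhibitor of Wnt, was at 6.37 and 6.14 TPM alone and at 2.45 and 2.19 TPM with Oli-neu, a difference of -1.13. Of 12 hedgehog pathway genes 7 were lower (58.3%) and 0 higher, and 5 and 2 after median-ratio scaling, and their median of -0.20 was near that of all genes. Hhip passed the filter through the libraries alone only and so had to be lower. Among the 11 hedgehog genes that reached 1 TPM in both groups, 6 were lower and 0 higher as deposited, with a median of -0.16. Smo, which may include transcripts of the activated form, was at 33.2 and 36.7 TPM alone and at 24.1 and 23.7 TPM with Oli-neu. Ptch1 overlapped between groups.

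Immediate early genes and feedback genes of the ERK kinases, which respond to EGF and FGF, had 12 of 27 members lower (44.4%) and 4 higher (14.8%), near the 41.5% and 10.9% of all genes, and 7 and 8 after median-ratio scaling. Their median of -0.14 became -0.25 without MB1 with Oli-neu replicate 2 and 0.04 after median-ratio scaling. Egr3 passed the filter through the libraries alone only and so had to be lower. Among the 26 members that reached 1 TPM in both groups, 11 were lower and 4 higher as deposited, with a median of -0.13. Etv1, a transcription factor downstream of FGF, was at 23 and 18.7 TPM alone and at 12.2 and 11.8 TPM with Oli-neu. Among ligands of the EGF receptor, Areg was at 2.42 and 2.10 TPM alone and at 4.15 and 4.33 TPM with Oli-neu, and Hbegf was at 10.1 and 12.7 TPM alone and at 18.3 and 18.9 TPM. Egf, under the filter, lay lower, at 0.424 and 0.604 TPM alone and at 0.365 and 0.265 TPM with Oli-neu. Igf2, a growth factor of fetal tissue, was at 0.739 and 0.734 TPM alone and at 3.6 and 3.21 TPM with Oli-neu, a difference of 1.34. Igf2 passed the filter through the co-culture libraries only and so had to differ. Over the whole list of 27 growth factors and their receptors, 9 were higher (33.3%) and 7 lower (25.9%) in both libraries, and 12 and 2 after median-ratio scaling. Among the 25 that reached 1 TPM in both groups, 7 were higher and 7 lower as deposited, with a median of -0.08 against 0.02 for the whole list.

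Lineage genes were mixed. The granule neuron list had 4 of 13 members higher (30.8%) and 3 lower (23.1%). Among the 12 of them that reached 1 TPM in both groups, 3 were higher and 3 lower. Of 13 oligodendrocyte precursor markers 8 were lower (61.5%) and 0 higher, and 5 and 1 after median-ratio scaling. Their median of -0.26 was -0.42 without MB1 alone replicate 2 and -0.09 after median-ratio scaling. Olig2 was at 246 and 228 TPM alone and at 155 and 151 TPM with Oli-neu, and Gpr17, a receptor of precursors committed to differentiate, was at 2.42 and 1.60 TPM alone and at 0.502 and 0.138 TPM. The groups did not overlap for either gene, and Gpr17 passed the filter through the libraries alone only and so had to differ. Among the 12 precursor markers that reached 1 TPM in both groups, 7 were lower and 0 higher as deposited. Of 19 astrocyte and radial glia markers 10 were higher (52.6%) and 4 lower (21.1%), with a median of 0.18. Gfap, the intermediate filament of reactive astrocytes, was at 4.17 and 2.67 TPM alone and at 6.23 and 9.29 TPM with Oli-neu, whereas Nes, nestin of progenitors, was at 59.6 and 64.9 TPM alone and at 41.4 and 43.7 TPM.

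The markers of other cells stood as follows. Of 20 microglia and macrophage markers 2 passed the filter, Cd68 among them. The defining markers C1qa, C1qb, C1qc and Tyrobp were listed at 0 in all 4 libraries and Csf1r did not exceed 0.00944 TPM, beside the higher chemokines. Cd68, a lysosomal protein, was at 4.88 and 6.78 TPM alone and at 11.5 and 21.7 TPM with Oli-neu. Of 15 endothelial and mural markers 2 passed, Cspg4 and Pecam1. They summed to 18.3 and 22.6 TPM alone and to 25.0 and 24.5 TPM with Oli-neu, most of it from Cspg4. Cspg4 is also on the oligodendrocyte precursor list and overlapped between groups, while Pecam1 was higher in both co-culture libraries. Cdh5 and Cldn5 were listed at 0. The 4 fibroblast and meningeal markers that passed summed to 121 and 132 TPM alone and to 179 and 204 TPM with Oli-neu, most of it from Ptgds. Of these 4 markers Thy1 and Ptgds were higher and Alpl and Foxc1 lower in both co-culture libraries, with Thy1 at 13.9 and 10.7 TPM alone and at 27.1 and 34.2 TPM. The part of Cd68, Thy1 and the summed levels in the results was not tested.

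Transcripts of the partner were followed with genes that Oli-neu expressed and MB1 alone did not. At 50 TPM or more in both libraries of Oli-neu alone and under 0.1 TPM in MB1 alone there were 4 genes, 0 of them protein-coding. At 10 TPM or more there were 9 protein-coding genes, such as Erbb3, a neuregulin receptor. They summed to 0.462 and 1.06 TPM in MB1 with Oli-neu, at most 0.576% of their sum in Oli-neu, and to 0.357 and 0.168 TPM in MB1 alone. Meis2, 1 of the 9, held 0.214 and 0.945 TPM of the co-culture sums, and Erbb3 held 0.0447 and 0.0680 TPM. Sox10, a factor of the oligodendrocyte lineage, was at 0.882 and 0.466 TPM in MB1 alone and at 0.586 and 0.484 TPM with Oli-neu.

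The levels of the leading genes in Oli-neu itself are given side by side, since the tables of the lines were normalised separately and a difference between lines was not tested. Ccl2 was at 0.0591 TPM and at 0 in Oli-neu alone, and at 0 and 0.0410 TPM in Oli-neu grown with MB1. Cxcl10 was at 0.586 and 0.11 TPM in Oli-neu alone and at 0.0371 and 0.0203 TPM with MB1. The chemokine level in MB1 with Oli-neu was thus above that in any of these 4 Oli-neu libraries. Nfkbia was at 29.0 and 31.2 TPM in Oli-neu alone and at 30.2 and 29.3 TPM with MB1. Agtrap was at 6.11 and 14.1 TPM in Oli-neu alone and at 7.08 and 17.6 TPM with MB1, and Hdac11 at 4.03 and 12.0 TPM and at 4.38 and 14.9 TPM. The replication list had a median of -0.47 in Oli-neu beside MB1, against -0.06 for all genes there, and the ribosome biogenesis list -0.21.

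**Figure D5:**
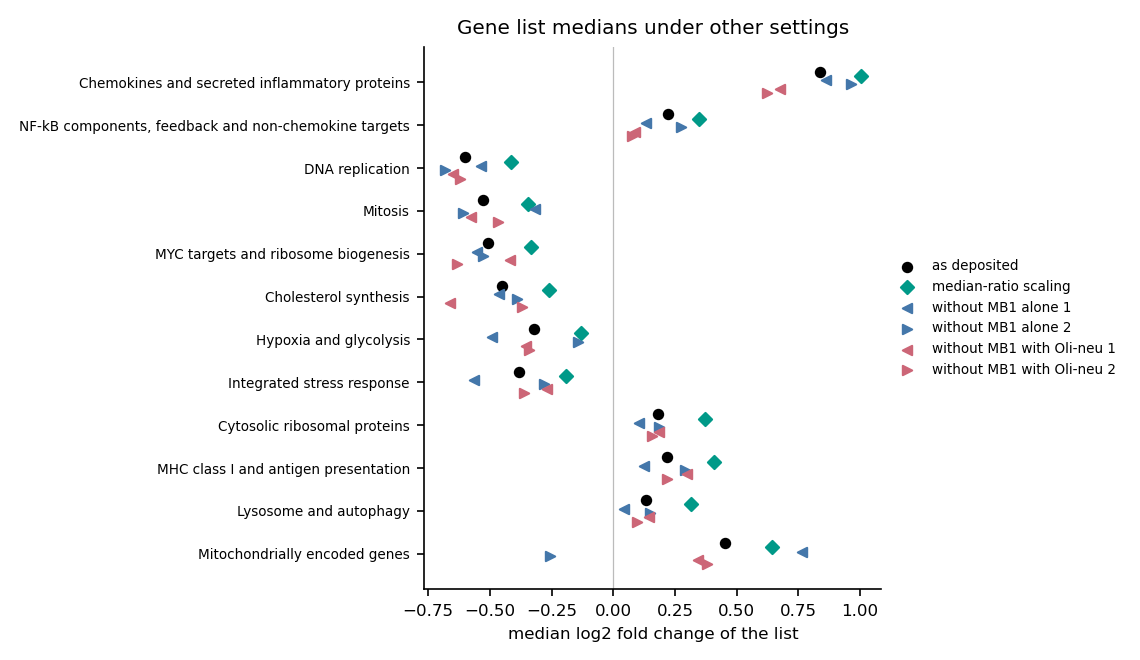
Median difference of gene lists between MB1 with Oli-neu and MB1 alone (x axis, log2(TPM + 1) scale) under the settings tried, with 1 symbol per setting and 1 line per list. The replication list stays between -0.68 and -0.54 when 1 library is left out and lies at -0.42 after median-ratio scaling, while the mitochondrially encoded list crosses 0.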

How the data were processed

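Poly(A)-selected RNA was sequenced over 75 cycles with a directional kit, per the labels. The deposited values are TPM, transcript abundances that the authors scaled to 1 fixed total per library and summed per gene, with 1 table for each line. The submitters' processing notes list the builds GRCm38 and GRCh38 and, with no role or order, Salmon 0.14.1, DESeq2 1.22.2, FastQC 0.11.8 and MultiQC 1.7. TPM keeps no read counts, so no count test or counting interval is given.

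Of 35288 identifiers, 99.5% had a symbol in GENCODE M21. Genes with at least 1 TPM in 2 libraries were put on the scale log2(TPM + 1) and tested in R 4.3.3 by limma 3.58.1 (mean-variance trend, two-sided, Benjamini-Hochberg adjustment over 12407 genes, threshold 0.05). The libraries of the other lines stayed out of the fit. The procedure was tested on simulated data. Errors are limma's moderated SE.

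The comparison, the 41 gene lists and the rule for naming genes were chosen with earlier results of these data known. With under 5 genes past the threshold the rule takes the 10 with the smallest p, leaving out unnamed gene models, pseudogenes and mitochondrial genes, plus up to 4 members with the smallest p of each list described. Marker genes are given as levels. Other members named here (such as Nfkbiz, Rela, Csf1, Il33, Il34, Pold1, Ccnd1 and Cxcl12) were chosen after their values were seen. Lists are described by counts and medians, with no test of a list.

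The settings varied were the pseudocount (0.1 or 5 TPM), the filter (none or 5 TPM), the scaling (median-ratio, or TPM without mitochondrial genes), the gene set (protein-coding alone), the variance model (no trend, or robust), a minimum fold change, a replicate block, and single libraries left out. A crossed block, median-ratio scaling over protein-coding genes, counts of list members without MB1 alone replicate 2, and list values over members that reached 1 TPM in both groups were added after the data were seen. A group reduced to 1 library was assumed to vary like the other group. The human D341 table was not used here. Some genes of the lists are not reported here by name.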

Additional observations from a re-analysis of the deposited data

How the results depend on the processing

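No gene was called in either direction with other pseudocounts or filters, median-ratio scaling alone, no mitochondrial genes, no trend, or a minimum fold change in limma. Protein-coding genes alone gave 3 higher and 2 lower, robust estimation gave 2 and 7, and median-ratio scaling of protein-coding genes, added after the data were seen, gave 4 and 2. Leaving out 1 library gave between 0 and 61 genes called higher and between 0 and 51 called lower, with 61 and 51 without MB1 alone replicate 1, and 1 and 0 without MB1 alone replicate 2. Without MB1 with Oli-neu replicate 1 there were 0 and 2, and without replicate 2 there were 0 and 1. With the replicate number as a block 0 genes were higher and 0 lower (smallest limma adjusted p = 0.216). The deviations of same-numbered libraries correlated with r = -0.115 across genes, and the crossed pairing also gave 0 and 0. With 2 libraries per group, and MB1 alone replicate 2 standing apart, this r cannot show whether the numbers pair the samples. None of the 10 named genes changed direction in any setting, but they were chosen by the smallest p and their groups did not overlap. Leaving out 1 library or changing the pseudocount could therefore not reverse them. Depth is unknown, and genes near 1 TPM, such as Lcn2, are the least precise.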

Other observations

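Genes next in order of p, ranks 11 to 30, were chosen after their values were seen and did not pass the threshold of limma. Txnip, which binds thioredoxin and restrains glucose uptake, was at 97.5 and 100 TPM in MB1 alone and at 227 and 289 TPM with Oli-neu. Clu, clusterin, a secreted chaperone of reactive glia, was at 7.88 and 8.17 TPM alone and at 17.8 and 20.1 TPM with Oli-neu. Emp3, a small membrane protein, was at 3.04 and 2.43 TPM alone and at 9.57 and 8.13 TPM with Oli-neu. All 3 were higher in both co-culture libraries. Myt1, a zinc finger factor of neural and oligodendrocyte precursors, was at 16.9 and 13.6 TPM alone and at 6.09 and 5.89 TPM with Oli-neu. Ptpn5, a neuronal tyrosine phosphatase, was at 13.0 and 13.9 TPM alone and at 5.37 and 6.15 TPM with Oli-neu.

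Of 22 TGF-beta and matrix genes 6 were higher (27.3%) and 5 lower (22.7%) in both co-culture libraries, against 10.9% and 41.5% of all genes, and 11 of 21 were higher and 3 lower after median-ratio scaling. Among the 20 TGF-beta and matrix genes that reached 1 TPM in both groups, 4 were higher and 5 lower as deposited. Of 20 matrix proteases and inhibitors 8 were higher (40%) and 7 lower (35%), and 11 and 3 after that scaling. Among the 18 of these that reached 1 TPM in both groups, 7 were higher and 6 lower as deposited. Of the collagen VI chains, Col6a1 was at 3.85 and 5.02 TPM alone and at 8.06 and 10.8 TPM with Oli-neu, and Col6a2 was at 0.493 and 0.562 TPM alone and at 1.5 and 1.86 TPM. Col6a2 passed the filter through the co-culture libraries only and so had to differ. Tgfbr1, a receptor of TGF-beta, was at 5.54 and 4.71 TPM alone and at 3.15 and 3.05 TPM with Oli-neu. Of 21 NRF2 antioxidant genes 5 were higher (23.8%) and 9 lower (42.9%), and 6 and 4 after median-ratio scaling. Among them Fth1, the ferritin heavy chain, was at 1309 and 1287 TPM alone and at 2071 and 2277 TPM with Oli-neu, and Hmox1, which releases iron from haem, was at 30.4 and 50.1 TPM alone and at 24.2 and 23.7 TPM. Fth1 has processed pseudogenes, so its reads can be shared.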
